A study of Mus musculus with 32 samples.

Results

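Mouse embryonic stem cells carrying a dexamethasone-responsive METTL3 fusion on a Mettl3 knockout background were compared with wild-type stem cells at day 0. The comparison takes 4 of the 32 libraries of the study, 2 in each group, and all genes of the deposited table. It asks which RNAs of the rescued stem cells still differed from wild type, on the low side and on the high side. Wild type (WT) is the Rx:GFP line, untreated. The fusion cells are Mettl3 KO cells with overexpression of WT METTL3 joined to a domain named GRBD, labelled as Dex treated. Dex is dexamethasone, a synthetic glucocorticoid, given at 10 µM. The treatment protocol describes Dex for later days of culture and gives no length of treatment for day 0, so the label was followed. According to the design text, the fusion stays in the cytosol until Dex sends it to the nucleus. Values of the other 2 groups at day 0, untreated Mettl3 KO cells and untreated fusion cells, are set beside the comparison, with 2 libraries each. All 4 groups were labelled as ESCs (embryonic stem cells) on the Rx:GFP background, and the KO and fusion groups share the Mettl3 knockout. The labels do not say how many clones each line stands for or whether duplicates came from separate cultures. The duplicates had separate library preparations, so p-values measure the spread between duplicate libraries, which may be technical. That spread was pooled over all 16 groups of the study and not taken from the 4 compared libraries alone.

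METTL3 is the catalytic subunit of the nuclear complex that writes N6-methyladenosine (m6A) on RNA, and METTL14 is its structural partner. YTH-domain proteins bind the mark, and marked messenger RNAs are often turned over faster. In mouse embryonic stem cells, transcripts of many pluripotency regulators carry m6A, and loss of Mettl3 is known to delay the exit from the naive state.

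Expression was given as FPKM, fragment counts scaled by transcript length in kilobases and by library depth. Differences are between group means of log2(FPKM + 1), fusion with Dex minus WT, and understate the change of genes near 0. A gene was called, and is said to have risen or fallen, at a Benjamini-Hochberg adjusted p under 0.05 from limma. Where 4 pairs of values follow a gene, they are its FPKM in the 2 libraries each of WT, KO, fusion without Dex and fusion with Dex, in that order. The estimated depth of the 8 libraries at day 0 ran from 28500000 to 41800000 fragments, and 3 fragments on a transcript of 2 kb correspond to 0.036 to 0.053 FPKM. These limits cover counting error only. The WT duplicates correlated less well than those of the other 3 groups (r = 0.9922 against 0.9937 to 0.9941, over tested genes), and for well-covered genes their squared difference was 11.4 times what counting noise gives, against 1.53 times for the Dex duplicates. WT replicate 1 is the shallowest library, and values without it, or without another of the 4 libraries, are given where they differ most.

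Mettl3 itself (chromosome 14, 52294841 to 52305128, minus strand, GRCm38) was measured at 36.80 and 33.15 FPKM in WT, 43.83 and 42.88 in KO, 68.52 and 71.78 in the fusion line without Dex and 75.06 and 75.01 with Dex. The KO libraries were not below WT, so the gene-level value does not show the knockout. Fusion cells with Dex were above WT without overlap (log2 difference 1.08, SE 0.06, adjusted p = 5.48e-11), and reads of the transgene and of the endogenous gene were not separated in the table. The row for the green fluorescent reporter was low in all groups at day 0 (0.09 and 0.86 FPKM in WT, 0.32 and 0.19 with Dex, not called). The rows for Cre, mCherry and tdTomato were listed at 0 in all 8 libraries.

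Small differences between fusion cells with Dex and WT were widespread and large ones were few. Of 16276 tested genes, 8106 (49.8%) were called, 3094 higher (19.0%) and 5012 lower (30.8%). A log2 difference of at least 1 was reached by 277 called genes (1.70%), 106 higher (0.651%) and 171 lower (1.05%). The median difference over all tested genes was -0.04. With the spread of the 4 compared libraries alone, which leaves 2 residual degrees of freedom, 4342 genes were called. With log2 differences centred by transcript length, the split changed to 3660 higher and 3592 lower among 7252 calls. Leaving out WT replicate 1 gave 7046 calls, of which 92 rose and 188 fell by at least 1.

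**Figure D1:**
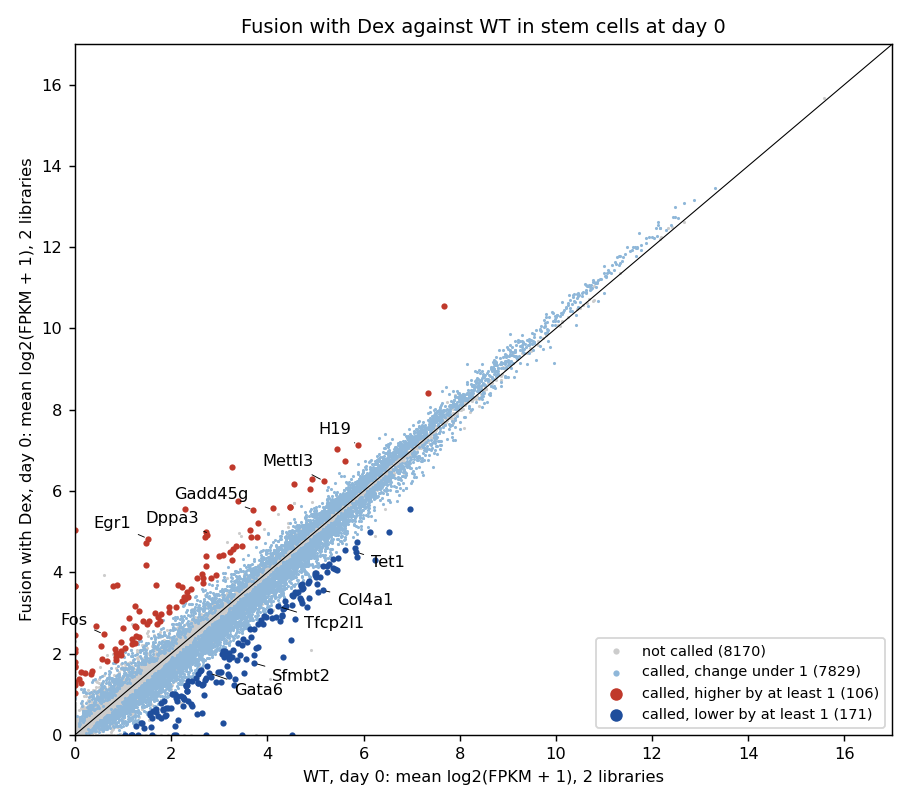
Mean log2(FPKM + 1) of the 2 WT libraries (x axis) against the 2 libraries of the fusion line with Dex (y axis), 1 point per tested gene; red and dark blue points are the 106 genes called higher and the 171 called lower by at least 1. Most of the 8106 called genes lie close to the diagonal, and Egr1, Fos, Dppa3, Gadd45g and Mettl3 stand above it while Sfmbt2, Gata6, Col4a1, Tfcp2l1 and Tet1 stand below.

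The same genes were then read in libraries that the comparison did not use. In untreated fusion cells against KO cells, 64 of the 106 genes (60.4%) were called higher, against 19.3% of all tested genes, and 1 was called lower. Of the 171 genes that had fallen, 124 (72.5%) were called lower there, against 29.8% of all genes, and 4 were called higher. The fusion line thus differed from its KO parent in the same direction for most of these genes without Dex. The 106 genes were short, with a median longest transcript of 0.92 kb (2.92 kb for all tested genes), and 37 were pseudogenes. Protein-coding genes of up to 1 kb had a median difference of 0.27 in untreated fusion cells against KO cells. The share of all genes is thus an unlike background for the 106, and the part of length was not tested. At day 2 of culture, fusion with Dex against WT, 31 of the 106 were again higher (29.2%, background 12.2%) and 87 of the 171 again lower (50.9%, background 17.2%). At day 4, when 44.7% of all genes were called, the shares were 10.4% (11 genes, background 25.7%) and 29.8% (51 genes, against 3107 of all 16276 genes). At day 6 they were 21.7% (23 genes, background 29.2%) and 70.2% (120 genes, background 32.2%). Genes low in stem cells were thus above the background share in the same direction on all 3 later days, and genes high in stem cells on day 2 only.

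Differences followed transcript length. Among tested protein-coding genes, the median difference from WT was 0.23 for the 707 genes whose longest annotated transcript is up to 1 kb and fell class by class to -0.31 for the 745 genes over 8 kb. In the shortest class 48.5% of genes were called higher and 3.82% lower, and in the longest 6.04% were higher and 60.8% lower. The same order was seen in KO cells against WT (0.12 to -0.21) and, more steeply, in untreated fusion cells against WT (0.40 to -0.45). Between the 2 WT libraries the medians of the classes stayed between -0.01 and 0.02. The median longest transcript was 1.98 kb for genes that rose, 4.23 kb for genes that fell and 2.92 kb for all tested genes. Values after centring by transcript length, an alternative chosen after the data were seen, are therefore given beside gene lists below. The part of length, or of anything that moves with it, in single results was not tested further.

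**Figure D2:**
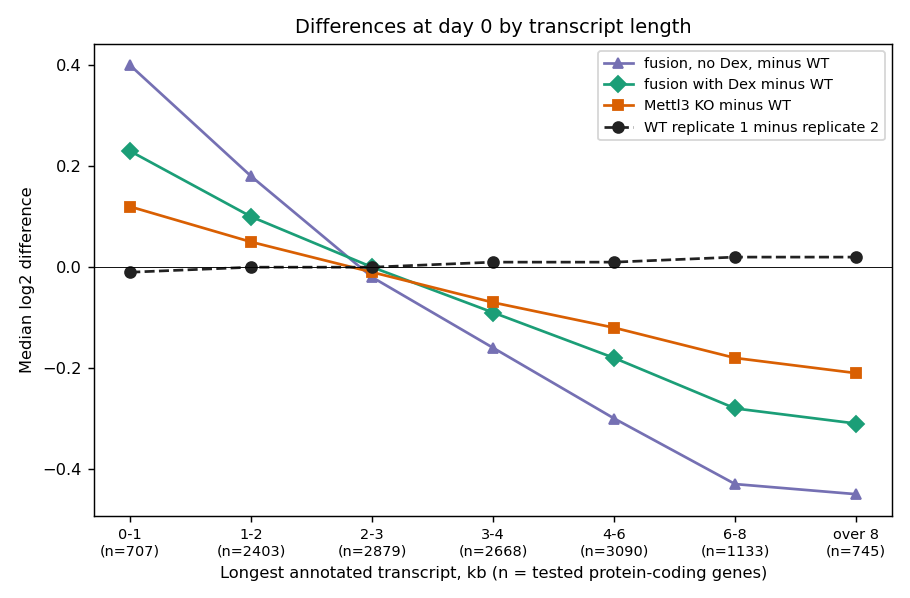
Median log2 difference at day 0 (y axis) by class of longest annotated transcript in kb (x axis, number of tested protein-coding genes in brackets), for each of 3 groups against WT and for the WT duplicates. Fusion with Dex runs from 0.23 in the shortest class to -0.31 in the longest, between the lines of KO and untreated fusion cells, while the WT duplicates stay near 0.

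Among the 12 largest rises of protein-coding genes, 4 were well-known regulators: Egr1, Dppa3, Fos and Gadd45g. Gadd45g (chromosome 13, 51846678 to 51848468), a stress-inducible gene linked to growth arrest and DNA demethylation, was measured at 11.75 and 12.41, 9.79 and 8.76, 35.89 and 39.76, and 45.25 and 45.32 FPKM. Both fusion groups stood above WT and KO without overlap, and the difference of Dex from WT was 1.82 (SE 0.07, adjusted p = 4.36e-13). Exosc6, a subunit of the RNA exosome, was listed at 0 in WT and KO and at 69.04 and 74.01, then 30.21 and 34.14, in the fusion groups. Its 1326 annotated bases lie wholly inside Aars on the same strand, and Aars moved the other way (148.12 and 158.09 in WT, 131.18 and 131.00 with Dex), so the assignment of reads between them is uncertain. Rpgrip1, which overlaps Supt16 on the opposite strand, read 1.38 and 1.38 in WT, 36.61 and 36.03 without Dex and 7.39 and 8.50 with Dex, while Supt16 went from 93.30 and 88.58 in WT to 53.09 and 53.73 with Dex. Strand use in counting was not given, so that pair is uncertain too. The other 6 (Gm50139, Gm4312, Gm9780, Gm21293, Gm4340 and Gm10401) are predicted genes that overlap other genes or may share reads with near-identical copies, and their differences of 1.54 to 2.87 are uncertain for that reason. Gm9780 was not called without WT replicate 1 (1.41) or Dex replicate 1 (1.61).

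Among the 12 largest falls, Sfmbt2 was the clearest gene that stayed at a low level with Dex. Sfmbt2 (chromosome 2, 10370510 to 10595253), an imprinted Polycomb-related gene of extraembryonic tissue, was measured at 12.51 and 11.84, 1.27 and 1.47, 1.04 and 1.09, and 2.32 and 2.48 FPKM. It was low in all 6 libraries on the KO background (difference -1.95, SE 0.07, adjusted p = 1.41e-13), and WT was 5.07 times as high as fusion with Dex. Other falls were deepest in the untreated fusion line. Zyg11a, a substrate receptor of a ubiquitin ligase, read 8.39 and 8.02, 5.06 and 5.58, 0.95 and 0.97, and 1.81 and 1.65 FPKM, so that both fusion groups were below KO as well as WT. Pdpr, a regulator of pyruvate dehydrogenase phosphatase, read 7.88 and 6.59, 3.48 and 3.87, 0.48 and 0.33, and 1.46 and 1.48. Man1a2, a Golgi mannosidase, and Aak1, a kinase of clathrin-mediated endocytosis, fell by 1.62 each (SE 0.30 and 0.12). Adnp, a chromatin regulator, fell from 13.64 and 10.97 in WT to 2.50 and 3.31 (difference -1.77), but it lies wholly inside the predicted gene Gm20716 on the same strand, which rose from 13.92 and 15.07 to 17.94 and 17.42. The rest were the predicted or multi-copy genes Gm28036, Zfp978, Gm21748, Gm38394, Gm21860 and Gm14412 (differences -2.16 to -1.66), for which reads may be split between copies.

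Genes of the extraembryonic endoderm, the lineage of the primitive endoderm and yolk sac, which appears in small numbers in stem cell cultures, were the list with the lowest median. Of 23 measured members 20 fell, 2 rose and 1 was not called, against 30.8% lower and 19.0% higher over all tested genes. The list's median was -0.69, against -0.04 over all genes. This list, like the others, was chosen with earlier results of these data known, so its counts and rank are no independent test. The counts were 19 lower and 2 higher without WT replicate 1 and 17 lower and 1 higher after length centring. Gata6, the transcription factor that starts the primitive endoderm program, was measured at 5.93 and 5.79, 1.09 and 1.03, 1.19 and 1.38, and 2.07 and 1.69 FPKM (difference -1.26, SE 0.10, adjusted p = 6.12e-09). WT was 3.12 times as high as fusion with Dex, which in turn lay above both other groups. Gata4, its partner, was measured at 4.05 and 3.60, 0.77 and 0.65, 0.86 and 0.80, and 0.75 and 0.94 FPKM (difference -1.39, SE 0.07), with the values of the other 3 groups overlapping. Sox17 read 4.22 and 5.71 in WT and 1.22 and 1.65 with Dex (difference -1.29), and the related Sox7 1.27 and 0.89 against 0.14 and 0.21 (-0.82).

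Other members of the list were mostly low as well. Foxa2, a forkhead factor of endoderm, read 0.93 and 0.88 in WT against 0.17 and 0.19 with Dex (difference -0.69). Pdgfra, the surface receptor used to mark this lineage, read 1.96 and 1.94, 0.19 and 0.18, 0.14 and 0.15, and 0.50 and 0.38 (difference -1.04, SE 0.09, adjusted p = 1.57e-08). Dab2, an endocytic adaptor, read 6.19 and 4.46 against 3.03 and 2.74 (-0.69), and the cargo receptors Amn and Cubn fell by 1.01 and 0.49. Srgn, a secreted proteoglycan core protein, read 9.13 and 9.55 in WT and 3.95 and 1.58 with Dex (difference -1.53, SE 0.23), with a wide gap between the Dex libraries. The list had 1 rise without WT replicate 2 or Dex replicate 1. The 2 members that rose were Lamc1 (0.19) and Cited1 (0.37), and the latter was not called without WT replicate 2 (0.28) or without Dex replicate 1 (0.26). The summed level of the list was 520.9 and 570.1 FPKM in WT, 431.0 to 452.8 in KO and untreated fusion cells and 380.0 and 376.4 with Dex, and most of that sum comes from matrix genes that stem cells also express. In bulk RNA, fewer cells of a kind and less RNA per cell cannot be told apart.

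The same genes stayed low in culture: at days 2, 4 and 6, fusion with Dex against WT, 23, 22 and 22 of the 23 were called lower, with medians of -1.11, -1.04 and -1.52. The differences of Gata6 on those days were -1.44, -1.34 and -2.27. These later contrasts use other libraries, and 17.2% of all tested genes at day 2, 3107 of 16276 at day 4 and 32.2% at day 6 were called lower there.

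Basement membrane and integrin genes fell with them, where 30.8% of all tested genes fell and 19.0% rose. Of 15 members 11 fell and 3 rose (median -0.60), or 10 and 3 without WT replicate 1 and 9 and 4 after length centring. Col4a1 and Col4a2, the 2 ubiquitous type IV collagen chains, share a promoter region and moved together. Col4a1 was measured at 31.15 and 38.04, 16.65 and 11.87, 9.68 and 9.93, and 10.66 and 10.88 FPKM (difference -1.59, SE 0.11, adjusted p = 6.49e-10), and Col4a2 fell by 1.28. Lama1, the laminin chain of the earliest embryonic basement membrane, read 19.14 and 20.45 in WT and 8.15 and 7.88 with Dex (difference -1.21), Nid1, a linker protein, fell by 1.23 and Lamb1 by 0.60. The laminin receptor subunits Itga6 (-0.67) and Itgb4 (-0.83) and dystroglycan, Dag1 (-0.62), were also lower. Lama5, a laminin chain of later basement membranes, moved the other way, from 21.63 and 32.40 in WT to 44.15 and 42.77 (difference 0.69, SE 0.14), as did the proteoglycan Hspg2 (0.35). Col4a1, Col4a2, Lama1, Lamb1, Lamc1 and Sparc are in both lists, so the lists are not independent.

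**Figure D3:**
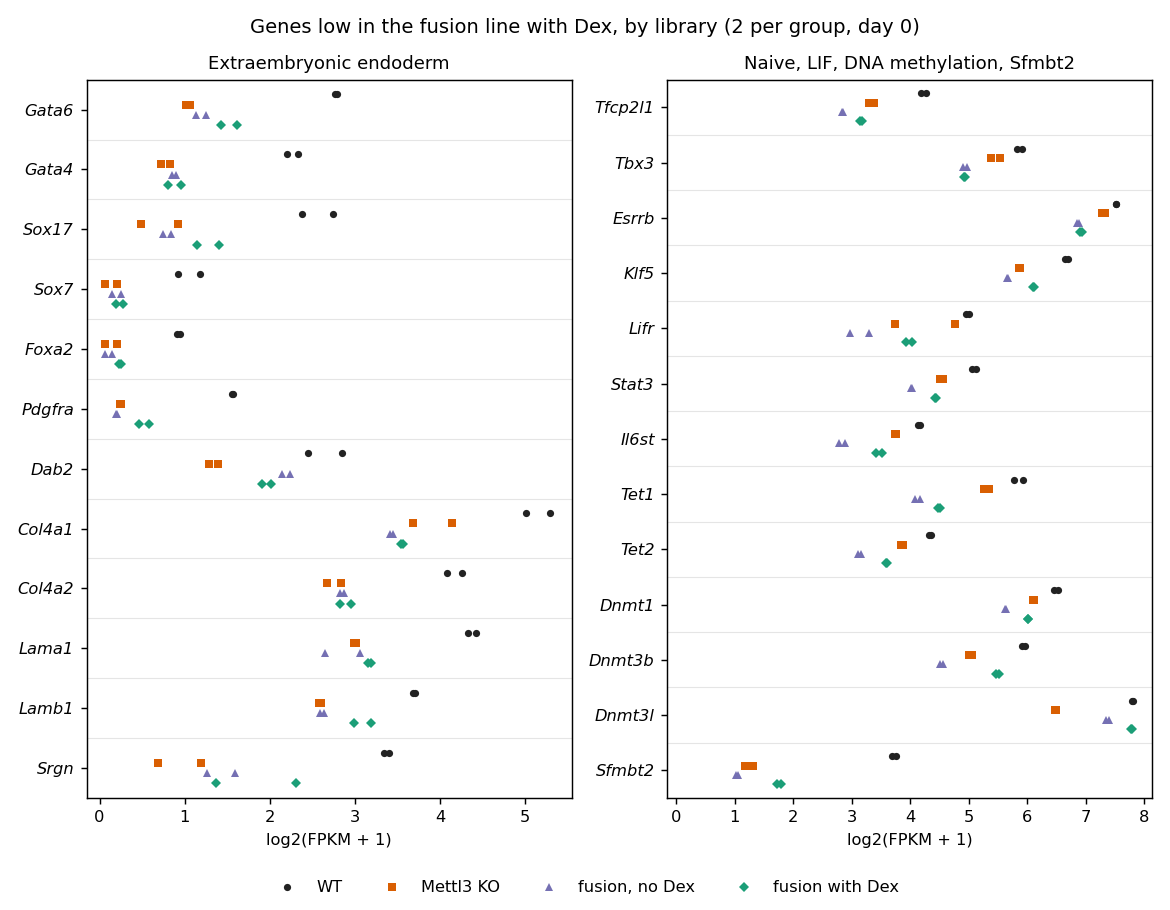
Log2(FPKM + 1) (x axis) of genes low in the fusion line with Dex, 2 points per group for WT, Mettl3 KO, fusion without Dex and fusion with Dex at day 0. In the left panel the WT points stand to the right of all others for each extraembryonic endoderm gene; in the right panel Dnmt3l with Dex lies beside WT while Tet1, Tfcp2l1 and Sfmbt2 do not reach it.

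Naive pluripotency genes were mostly lower than in WT, while the core factors were close to it. As background, 30.8% of all tested genes fell and 19.0% rose. Of 16 naive genes 11 fell and 2 rose (median -0.40), and 10 fell and 2 rose after length centring. Without 1 of the 4 libraries the list's median ran from -0.473 (no WT replicate 2) to -0.34 (no WT replicate 1). Tfcp2l1, a transcription factor of the naive network, was measured at 18.30 and 17.20, 8.87 and 9.41, 6.16 and 6.22, and 7.86 and 8.01 FPKM (difference -1.07, SE 0.10, adjusted p = 3.44e-08). Esrrb, a nuclear receptor that sustains self-renewal, read 182.54 and 181.90, 155.01 and 160.13, 114.60 and 117.35, and 118.44 and 121.32 (difference -0.60), so both fusion groups lay below KO. Tbx3 fell by 0.94, Klf5 by 0.57 and Prdm14 by 0.47. Klf2 rose by 0.44, from 174.48 and 181.05 to 241.14 and 243.25 FPKM, and Dppa3 rose most (below). Of the 8 core genes 2 fell and 2 rose (median -0.02; 1 lower and 2 higher after length centring, 3 lower without either WT library): Pou5f1, which encodes OCT4, read 867.66 and 900.34 in WT and 913.38 and 927.59 with Dex, and Nanog 181.17 and 172.95 against 175.04 and 175.65, neither of them called.

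The LIF pathway, which keeps mouse stem cells in the naive state, had 6 of 11 members lower and 2 higher (median -0.35; 5 and 2 after length centring; 1 higher without any 1 of the 4 libraries). Over all tested genes 30.8% were lower and 19.0% higher. Lifr and Stat3 are also in the naive list and Junb in the list of immediate early genes below, so these lists are not independent. The receptor subunits Lifr (31.20 and 30.16 in WT, 14.21 and 15.39 with Dex; difference -1.004, SE 0.30) and Il6st (16.90 and 16.58 against 9.61 and 10.47; -0.69) fell, as did the kinase Jak1 (-0.58) and the transcription factor Stat3 (33.93 and 32.12 against 20.46 and 20.81; -0.65). The feedback inhibitor Socs2 fell by 0.35, and the targets Junb (0.78) and Pim1 (0.17) rose, the latter not called without any 1 of the 4 compared libraries (0.16 to 0.18). Lifr varied between the KO duplicates (26.04 and 12.39) and was not called without Dex replicate 1 (-0.95) or after length centring (-0.69).

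Formative genes, which mark the step after the naive state, rose more often than all tested genes (19.0%) and fell about as often (30.8%). Of 13 members 7 rose and 4 fell (median 0.19; 8 and 3 after length centring; 5 and 4 without WT replicate 1). Pou3f1, which encodes OCT6, was measured at 2.24 and 2.68, 3.46 and 2.94, 7.08 and 6.82, and 6.88 and 6.84 FPKM (difference 1.19, SE 0.06, adjusted p = 3.79e-12). Lef1, a Wnt effector, rose by 1.08 and Sox3 by 0.94. The 3 genes were higher in both fusion groups than in WT and KO. The de novo methylase Dnmt3b fell by 0.44.

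Enzymes of DNA methylation were lower as a group, with 7 of 8 down, none up and a median of -0.43 (also 7 down without WT replicate 1). By comparison, 30.8% of all tested genes were down and 19.0% up. Length centring left 5 lower and 1 higher with a median of -0.18, and the transcripts of this list are long. Tet1 (chromosome 10, 62804570 to 62908996), the main oxidase of 5-methylcytosine in stem cells, was measured at 59.92 and 53.48, 37.30 and 39.63, 15.94 and 17.06, and 21.76 and 21.32 FPKM (difference -1.35, SE 0.08, adjusted p = 5.89e-11). Tet2 read 19.02 and 19.56 in WT and 11.22 and 10.95 with Dex (-0.75), and the maintenance methylase Dnmt1 87.27 and 91.45 against 63.48 and 63.67 (-0.48). The exception was Dnmt3l, the cofactor of the de novo methylases, at 222.11 and 221.48, 88.07 and 89.35, 161.84 and 167.40, and 218.79 and 220.19 FPKM. Fusion cells with Dex lay just below WT for Dnmt3l (difference -0.02, SE 0.06, adjusted p = 0.875) and KO cells far below it. The difference of Tet1 from WT was -0.30 at day 2 and -0.12 at day 6, the latter not called.

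The combined list of immediate early genes, which growth factor and stress signals switch on within minutes, and of feedback genes of the ERK pathway split. Among all tested genes 19.0% rose and 30.8% fell. Of 17 members 6 rose and 10 fell (median -0.19; 6 and 11 after length centring; 6 and 9 without WT replicate 1). Egr1, a zinc finger transcription factor, was measured at 1.94 and 1.76, 2.56 and 2.40, 24.69 and 24.38, and 26.74 and 28.07 FPKM. Both fusion groups were far above WT and KO, and Dex stood at 14.8 times WT (difference 3.32, SE 0.05, adjusted p = 5.69e-19). Fos, an AP-1 subunit, was measured at 0.68 and 0.36, 0.15 and 0.31, 2.71 and 2.73, and 4.67 and 4.45 FPKM (difference 1.88, SE 0.10, adjusted p = 2.10e-11). Fosb read 0.16 and 0.11 in WT, 0.03 and 0.04 in KO and 1.11 and 1.14 with Dex (0.91). The other AP-1 genes Junb, from 40.81 and 54.10 to 80.84 and 81.53 FPKM (0.78), and Jun, from 2.23 and 1.90 to 3.57 and 3.37 (0.55), rose less, and Ier2 rose by 0.54. Ier3 was not called, and Egr2 was too low to test.

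The 4 AP-1 genes that rose are shown by the 250 bases before their RefSeq start (GRCm38.p6), given 5′ to 3′ on the gene's strand. Capitals mark TGACG (the core of the cyclic AMP response element) and GCGGGGGCG (the EGR1 recognition sequence), searched on both strands, and the 2 motifs do not overlap here. Fos lies at chr12:85473640-85473889 (plus), Fosb at chr7:19310046-19310295 (minus), Junb at chr8:84978749-84978998 (minus) and Jun at chr4:95052223-95052472 (minus).
Fos: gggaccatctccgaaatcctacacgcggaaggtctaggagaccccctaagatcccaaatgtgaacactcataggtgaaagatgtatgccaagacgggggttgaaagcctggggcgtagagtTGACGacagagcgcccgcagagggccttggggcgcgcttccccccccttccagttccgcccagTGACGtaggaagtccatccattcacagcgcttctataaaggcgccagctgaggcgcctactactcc
Fosb: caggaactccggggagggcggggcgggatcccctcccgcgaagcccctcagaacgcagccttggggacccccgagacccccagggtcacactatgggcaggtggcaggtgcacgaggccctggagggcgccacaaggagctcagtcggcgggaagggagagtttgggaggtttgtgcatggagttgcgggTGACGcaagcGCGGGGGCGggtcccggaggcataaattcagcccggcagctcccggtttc
Junb: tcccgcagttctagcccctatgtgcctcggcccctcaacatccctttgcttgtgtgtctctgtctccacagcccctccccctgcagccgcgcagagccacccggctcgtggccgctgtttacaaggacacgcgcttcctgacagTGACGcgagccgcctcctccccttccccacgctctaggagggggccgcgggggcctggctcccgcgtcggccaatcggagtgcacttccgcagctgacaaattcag
Jun: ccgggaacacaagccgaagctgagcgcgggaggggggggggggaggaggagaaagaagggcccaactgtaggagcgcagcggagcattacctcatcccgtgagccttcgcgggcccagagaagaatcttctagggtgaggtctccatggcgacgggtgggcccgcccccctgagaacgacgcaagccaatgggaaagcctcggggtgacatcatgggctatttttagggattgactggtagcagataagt
TGACG or its reverse complement was present in 3 of the 4 sequences, 2 times in Fos and 1 time each in Fosb and Junb, and in 17.8% of 32851 promoter windows of the same 250 bases. GCGGGGGCG was present in Fosb alone of the 4, 50 bases before the start, and in 2.57% of all windows. A CArG box, the site of serum response factor, was found in none of the 4 windows and in 1.47% of all. These are matches of letters in a window and do not show binding. Bases further upstream were not searched, so the absence of a match holds for these windows only. Egr1 and Ier2, which also rose, had no promoter entry.

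The falls in the list were smaller. Spry4, an inhibitor of receptor tyrosine kinase signalling, was measured at 39.33 and 38.56, 26.96 and 27.62, 20.65 and 20.68, and 23.30 and 22.48 FPKM (difference -0.74, SE 0.04, adjusted p = 3.72e-11). Etv4, an ETS factor, read 87.42 and 90.77 in WT, 89.13 and 93.26 in KO and 61.57 and 58.44 with Dex (-0.56). The ERK phosphatases Dusp6 (-0.49) and Dusp4 (-0.37), the inhibitors Spred2 (-0.41) and Spred1 (-0.37), were lower too, as was Myc (-0.45), a growth regulator that is itself an early response gene. At day 6 Egr1 was below WT in fusion cells with Dex (difference -0.36) and Fos was not called (0.01).

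**Figure D4:**
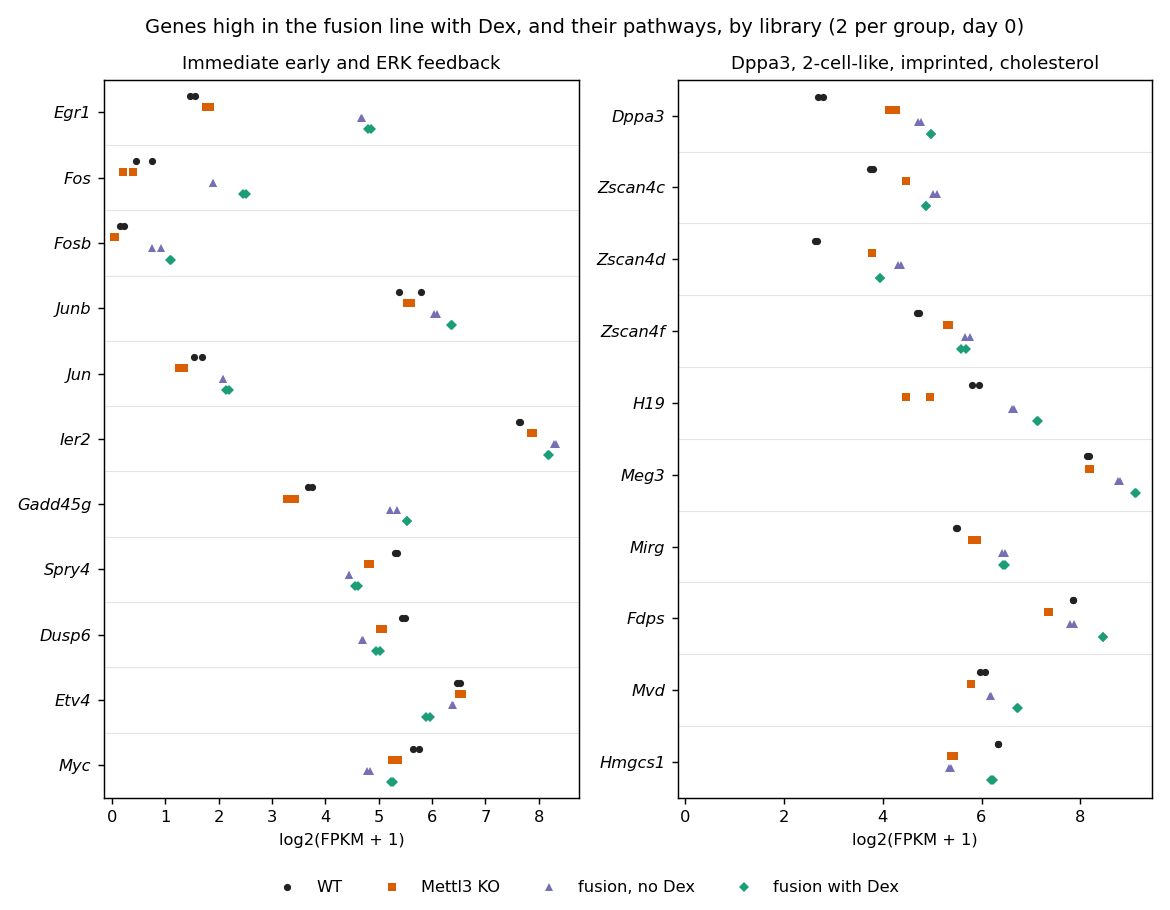
Log2(FPKM + 1) (x axis) of genes high in the fusion line with Dex and of their pathways, 2 points per group at day 0. Egr1, Fos, Fosb and Gadd45g separate both fusion groups from WT and KO; Spry4, Dusp6 and Myc are highest in WT; Fdps and Mvd are highest in fusion cells with Dex.

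Dppa3 and genes of the 2-cell-like state, a rare state of stem cells that resembles the 2-cell embryo, were above WT. Rises made up 19.0% of all tested genes at day 0 and falls 30.8%. Dppa3 (chromosome 6, 122626410 to 122630272), also called Stella, protects methylated DNA in the egg and marks naive and germ cells. It was measured at 5.41 and 5.89, 16.46 and 18.23, 25.08 and 26.26, and 30.43 and 30.68 FPKM, so that each group stood above the one before it. Dex was 5.41 times WT (difference 2.25, SE 0.11, adjusted p = 5.18e-12). Of 14 tested 2-cell-like genes 12 rose, 1 fell and 1 was not called (median 0.86); the counts were the same without WT replicate 1 and after length centring. Zscan4d, of the family that defines the state, read 5.35 and 5.15, 12.72 and 12.76, 19.56 and 18.77, and 14.47 and 14.45 (difference 1.31, SE 0.09), and Zscan4c rose by 1.09. The ubiquitin peptidase Usp17lc rose by 1.02 and Gm5662 by 1.01, and Eif1a, a translation initiation factor, fell by 0.19. The Zscan4 and Usp17l families have near-identical copies, so reads may be split among members. At day 2, 6 of the 14 were higher than in WT (12.2% of all genes were), and at day 6 none was and 8 were lower (29.2% and 32.2% of all genes).

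Cholesterol synthesis was low in KO and untreated fusion cells and above WT with Dex. With Dex, 19.0% of all tested genes rose against WT and 30.8% fell. Of 22 members 13 rose against WT and 4 fell (median 0.18), with 12 and 3 without WT replicate 1 and 17 and 1 after length centring. In KO cells 19 of the 22 were below WT and none above (median -0.49, background 29.8% lower). Against untreated fusion cells, all 22 rose with Dex (background 27.3%), a comparison that shares its Dex libraries with the one above. Fdps, which makes farnesyl pyrophosphate, was measured at 231.48 and 229.77 in WT, a mean of 163 in KO, 227 without Dex and 352.66 and 351.21 with Dex (difference 0.61, SE 0.02, adjusted p = 1.06e-13). Mvd, mevalonate decarboxylase, read 61.92 and 66.47 in WT and 104.44 and 106.56 with Dex (0.71), and Msmo1 rose by 0.56. Hmgcs1, an entry enzyme of the pathway, did not pass WT: it read 79.94 and 79.23 in WT, a mean of 40.2 without Dex and 73.86 and 72.07 with Dex (difference -0.12). Stard4, a sterol carrier, fell by 0.41.

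All 48 ribosomal protein genes of the list rose (median 0.34), from 0.17 for Rps24 to 0.63 for Rpl36. The count was 47 of 48 after length centring, 48 without WT replicate 1 and 27 when only the 4 compared libraries were fitted. Their summed level was 107939.9 and 112155.4 FPKM in WT, 118557.2 and 121638.0 in KO, 152545.8 and 152672.8 without Dex and 140513.2 and 140163.7 with Dex. These messages are short, and short messages as a class were higher (above). For this and the next list, 19.0% of all tested genes rose and 30.8% fell. Abundant long noncoding RNAs also rose: 10 of 14 were higher and 2 lower (median 0.62, or 0.41 without WT replicate 1; 10 and 2 after length centring). Snhg1, a host of small nucleolar RNAs, rose by 0.68 and Malat1, a nuclear speckle RNA, from 483.63 and 422.51 to 686.29 and 721.59 FPKM (0.64). Neat1, the scaffold of paraspeckles, was the opposite, at 89.65 and 95.11, means of 26.0 in KO and 20.8 without Dex, and 52.67 and 52.13 with Dex (difference -0.81, SE 0.06), between KO and WT.

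Of 34 imprinted genes 14 were higher and 11 lower, where 19.0% of all tested genes were higher and 30.8% lower. The falls were thus near the share of all genes. The median was 0.10, or 0.05 without WT replicate 1 and 0.07 without Dex replicate 2. After length centring 18 were higher and 8 lower. H19, Meg3, Kcnq1ot1 and Xist are also in the list of long noncoding RNAs above, so these lists are not independent. H19, a maternally expressed noncoding RNA, was measured at 54.85 and 61.14, 30.12 and 21.23, 100.64 and 96.77, and 139.48 and 139.15 FPKM (difference 1.25, SE 0.09, adjusted p = 1.06e-09). Meg3 read 280.87 and 286.93 in WT and 552.04 and 562.31 with Dex (0.97, SE 0.02), and its neighbours Mirg and Rian rose by 0.96 and 0.39. Igf2r, the mannose 6-phosphate receptor, fell by 0.87, Mest by 0.46 and Impact, a regulator of translation, by 0.44. Of 17 germline genes 5 rose and 7 fell (median -0.07; 4 and 7 with -0.15 after length centring; -0.13 without Dex replicate 1): the homeobox genes Rhox9 (8.74 and 9.47 in WT, 26.02 and 22.53 with Dex; 1.32) and Rhox6 (1.17) rose, and Dazl, a germ cell RNA-binding protein, fell by 0.80.

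Most members of the integrated stress response and p53 lists were called lower than in WT. The shares of all tested genes were 30.8% lower and 19.0% higher. None of 17 integrated stress response genes rose and 14 fell (median -0.32). After length centring 12 were lower, and 10 when only the 4 compared libraries were fitted. Without 1 of the 4 libraries the median ran from -0.345 (no WT replicate 2) to -0.315 (no Dex replicate 1). Atf4, its central transcription factor, read 110.17 and 104.92 in WT, a mean of 78.1 in KO, 85.2 without Dex and 77.83 and 79.23 with Dex (difference -0.45, SE 0.03, adjusted p = 6.86e-10). Its metabolic targets Mthfd2 (-0.55) and Asns (-0.36) fell. Of 18 p53 targets 12 fell and 4 rose (median -0.32; 11 and 3 after length centring). The summed level of the p53 list was not lower, at 1107.5 and 1215.5 FPKM in WT and 1223.2 and 1239.8 with Dex. Pmaip1, which encodes NOXA, fell by 0.61, Ccng1 by 0.42 and Mdm2 by 0.37, while Bbc3, which encodes PUMA, rose by 0.51. Glycolysis and hypoxia genes split evenly, 11 higher and 11 lower of 27 (median 0.03; 12 and 8 with -0.01 after length centring; 0.01 without WT replicate 1, 0.07 without WT replicate 2 or Dex replicate 2), with Aldoc (0.76) and Bnip3 (0.68) up and Vegfa (-0.60) and P4ha2 (-0.61) down.

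Genes of the m6A machinery moved in both directions, where 19.0% of all tested genes rose and 30.8% fell. Of 9 writer genes, Mettl3 included, 3 rose and 5 fell (median -0.11, or -0.20 without WT replicate 2; 2 and 4 without WT replicate 1). After length centring the direction turned, with 4 higher, 1 lower and a median of 0.068. Mettl16, a separate m6A methylase, was measured at 33.38 and 35.40, 36.31 and 35.08, 24.24 and 21.55, and 24.43 and 23.07 FPKM (difference -0.52, SE 0.05), and Rbm15b, which helps recruit the complex to RNA, rose by 0.28. Of 13 readers and erasers 10 fell and 2 rose (median -0.27; 7 and 3 with -0.12 after length centring). The 2 rises were not called without WT replicate 2 or without Dex replicate 1, and 1 was left without WT replicate 1 (9 falls) or Dex replicate 2. The RNA-binding proteins Igf2bp2 (-0.66) and Fmr1 (-0.65), the reader Ythdf3 (-0.56) and the eraser Alkbh5 (-0.39) fell.

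Glucocorticoid response genes gave no common rise over untreated WT cells, against which 19.0% of all tested genes rose and 30.8% fell. Of 18 members 2 rose and 8 fell (median -0.04), 5 and 6 after median-of-ratios rescaling or length centring, and 5 fell without either Dex library (1 rose without Dex replicate 2). Tsc22d3, also called GILZ, a classical target, read 1.13 and 0.86, 0.96 and 0.94, 1.05 and 1.30, and 1.83 and 1.66 FPKM (difference 0.46, SE 0.07, adjusted p = 2.49e-05), the highest values of the 4 groups but low ones. Fkbp5, another classical target, read 56.90 and 58.93, 48.81 and 48.04, 32.40 and 32.69, and 44.04 and 43.83 (-0.39), above untreated fusion cells and below WT. Nr3c1, the glucocorticoid receptor gene, read 3.27 and 2.96 in WT and 1.79 and 1.65 with Dex (-0.60). The metallothionein Mt2 read 1500.29 and 1263.63, 250.21 and 260.29, 1128.70 and 1123.71, and 1096.79 and 1089.33 (-0.33), so that KO alone was far below WT. Against untreated fusion cells, 9 of the 18 members rose with Dex and 1 fell (median 0.17). In that comparison, which shares the Dex libraries, 27.3% of all tested genes rose and 16.1% fell. In KO cells 14 of the 18 were below WT and 1 above (median -0.26, background 29.8% lower). WT cells with Dex were not analysed here, so the drug and the fusion protein cannot be told apart in these values.

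Markers of other cell types were mostly low. Their calls stand against 19.0% of all tested genes higher and 30.8% lower. Of 11 tested trophoblast genes 6 rose and none fell (median 0.35, or 0.22 without WT replicate 1; 7 higher after length centring), led by Hand1 (3.71 and 3.69 in WT, 8.42 and 9.14 with Dex; 1.06) and Esx1 (0.99). The defining trophoblast genes Cdx2 and Elf5 stayed at or below 0.49 and 0.34 FPKM in all 8 libraries. Of 14 feeder fibroblast markers 4 rose and 1 fell (median 0.10, or 0.05 without WT replicate 1; 9 and 1 with a median of 0.29 after length centring), with a summed level of 30.3 and 33.7 FPKM in WT and 39.6 and 41.9 with Dex. Of these markers, Postn and Dcn were at or below 0.17 FPKM in every library and were not called, and they do not stand for the rest of the list. Tagln, an actin-binding protein and target of serum response factor, was measured at 3.19 and 4.25, 1.83 and 2.00, 5.16 and 5.05, and 11.64 and 11.33 FPKM (difference 1.41, SE 0.17, adjusted p = 1.37e-06). The part of other cells in these results was not tested.

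Among neural and eye genes, Pax6, the master regulator of eye development, stood out at 3.94 and 4.09, 9.33 and 9.95, 7.76 and 7.13, and 11.07 and 9.67 FPKM (difference 1.18, SE 0.15, adjusted p = 2.06e-06), with all 6 other libraries above WT. Of 13 neural progenitor genes 4 rose and none fell (median 0.06; 7 and 0 with 0.17 after length centring; 1 fall without WT replicate 1, with 0.087, or without Dex replicate 1), where 19.0% of all genes rose and 30.8% fell. Of 9 eye field genes 3 rose and 1 fell (median 0.02; 4 and 1 with 0.12 after length centring; 0.055 without Dex replicate 1). Rax, the gene of the reporter line, was at 0.36 and 0.30 in WT and 0.23 and 0.20 with Dex (not called). Otx2, Pax6 and Tbx3 of the eye field list are also in the formative, neural progenitor and naive lists, respectively. Of 7 tested mesendoderm genes Lefty1 (0.78) and Fgf8 (0.58) rose and Lefty2 fell by 0.63 (median 0.06; 0.10 after length centring; 1 to 3 rises without 1 library). Fgf8 was not called without WT replicate 1 (0.39) or Dex replicate 1 (0.27). Epithelial adhesion genes rose in 9 of 16 cases and fell in 3 (median 0.20; 9 and 1 after length centring; 1 lower without Dex replicate 2), with Epcam, an epithelial adhesion molecule, at 58.89 and 57.88, 48.38 and 50.09, 54.21 and 51.82, and 87.86 and 88.11 with Dex (0.58, SE 0.06), and the splicing factor Esrp1 up by 0.68.

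**Figure D5:**
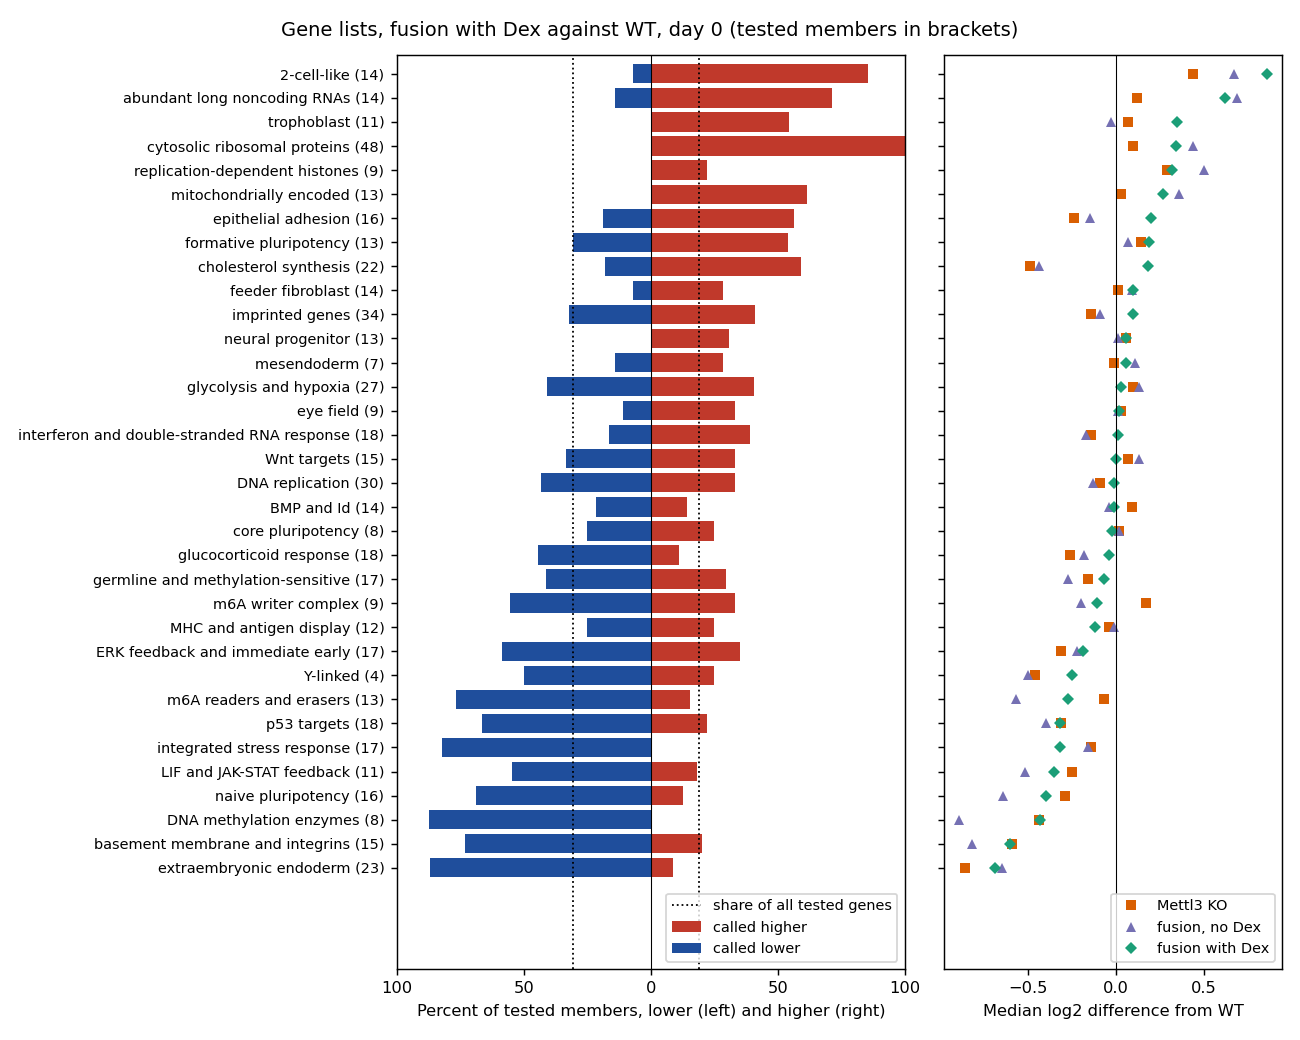
Left: percent of the tested members of each gene list called lower (left) or higher (right) in fusion with Dex against WT, with dotted lines at the shares of all tested genes (30.8% and 19.0%). Right: median log2 difference from WT (x axis) for KO, fusion without Dex and fusion with Dex, which share the same WT libraries; cholesterol synthesis is below 0 in KO and untreated fusion cells and above 0 with Dex, and extraembryonic endoderm has the lowest median with Dex.

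Most of the remaining lists held no common direction, or too few called members, where 19.0% of all tested genes rose and 30.8% fell. Interferon genes had more rises than falls in the main fit. Mitochondrially encoded genes were higher to a degree that depended on the WT library. Wnt targets had 5 of 15 higher and 5 lower (median 0.00; 3 higher without WT replicate 1, 2 without Dex replicate 2), BMP and Id genes 2 and 3 of 14 (-0.01), interferon genes 7 and 3 of 18 (0.01; 4 higher without Dex replicate 2), antigen display 3 and 3 of 12 (-0.12; 0.036 without WT replicate 2, -0.035 to -0.212 without a Dex library), DNA replication 10 and 13 of 30 (-0.01), replication-dependent histones 2 and 0 of 9 (0.32; 1 and 1 with 0.14 after length centring) and Y-linked genes 1 and 2 of 4 (-0.25). Mitochondrially encoded genes had 8 of 13 higher and none lower (median 0.27), and 4 higher with a median of 0.088 after length centring. The WT libraries differed in them: their summed level was 110058.1 and 83682.4 FPKM in WT against 105868.9 and 108454.3 with Dex. The count was 11 higher without WT replicate 1 (median 0.41), and 5 higher and 3 lower without WT replicate 2 (0.12). After length centring the other lists of this group had 6 higher and 5 lower (Wnt targets, median 0.12), 3 and 3 (BMP and Id), 4 and 1 (interferon), 2 and 3 (antigen display, median -0.05), 11 and 9 (DNA replication) and 2 and 2 (Y-linked, median -0.07).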

How the data were processed

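RNA of 32 libraries was sequenced as paired-end reads of polyadenylated RNA, per the labels' protocols. The authors deposited 1 table of FPKM values per gene, rounded to 2 decimals, with 55492 rows. STAR, Cuffdiff and the mm10 build are named, without versions or roles, in the submitters' processing notes. The treatment of reads that map to several genes, and of strand, is not given in the sources used here. Positions come from GENCODE M21 (GRCm38), which matched 99.5% of rows by gene ID. Promoter sequences come from RefSeq (GRCm38.p6), which held 6 of 8 immediate early genes looked up.

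Genes with 1 FPKM or more in 2 or more libraries entered the test (16276 genes). Values were taken as log2(FPKM + 1) and fitted in R 4.3.3 with limma 3.58.1 (mean-variance trend). The fit had 16 group means over all 32 libraries and 16 residual degrees of freedom, and p-values were two-sided with Benjamini-Hochberg adjustment over all tested genes. The size of 1 fragment, and from it each library's depth, was read from the spacing of low FPKM values (86.6% to 90.4% of them were within 0.2 of whole fragments at day 0, where chance gives 40.0%). Counting noise was judged on genes with 1 annotated transcript and at least 1000 fragments.

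Named were Mettl3 and the reporter rows, the 12 largest rises and falls among called protein-coding genes with a mean of at least 2 FPKM in the higher group and no overlap between libraries, and members of 34 gene lists, led by their largest called rises and falls. The lists hold 585 entries, of which 582 were in the table, and some genes entered several lists. Members and lists were chosen with earlier results of these data known. Deviations of same-numbered libraries were not correlated (r from -0.09 to 0.13 in 120 pairs of groups), and the numbers were not taken as pairs. Alternatives were another pseudocount, other filters, median-of-ratios rescaling, smaller sets of libraries, a replicate block, leaving out each library and centring by transcript length. Some results are not reported here.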

Additional observations from a re-analysis of the deposited data

Results flagged for a closer look

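The difference between fusion cells with Dex and WT was not the same in stem cells and in 6-day cultures: 7883 of 16276 tested genes (48.4%) were called in the contrast of the day 6 difference less the day 0 difference (limma, adjusted p under 0.05). Among the genes with the largest rises at day 0, 3 were called in the opposite direction at day 6. Egr1 was above WT by 3.32 at day 0 and below it by 0.36 at day 6, a change of -3.67 (SE of the day 0 difference 0.05, adjusted p of the change 2.47e-17). The predicted genes Gm21293 and Gm4340, neighbours on chromosome 10 whose reads may be shared, changed by -2.78 and -2.96. The 2 days differ in the stage of culture, and the length of Dex treatment at day 0 is not given, so these cannot be told apart here.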

How the results depend on the processing

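The main counts were 8106 called genes and 277 changed by at least 1. Fitting the 4 compared libraries alone, which leaves 2 residual degrees of freedom, gave 4342 calls. A pseudocount of 0.1 gave 806 genes changed by at least 1, and testing only the 9412 genes with a mean of at least 5 FPKM gave 125. A fit with a replicate block gave 8082 calls and 284 changed by at least 1, and it changed no call of a gene named in the text. Leaving out 1 of the 4 libraries gave 7021 to 7555 calls and 280 to 371 changed by at least 1; the lone library left is then assumed to vary like the other groups. Both counts stayed within 1.5 times of the main ones without a filter, after median-of-ratios rescaling, with the 8 libraries of day 0 alone and after length centring. Of 143 genes named in the text, 17 lost their call with the 4 compared libraries alone (among them Dab2, Srgn, Lama5, Sox3, Mt2 and Hmgcs1) and 5 with the 8 libraries of day 0 (Cited1, Fgf8, Lifr, Rbm15b and Rps24). Aars turned from a fall to 0.017 after length centring. Genes that were not called changed sign near 0: Dnmt3l to 0.046 and Nanog to 0.047 after median-of-ratios rescaling, and Pou5f1 to -0.045 after length centring. Without 1 library Nanog ran from -0.047 to 0.020. The cause of these changes was not tested. FPKM holds no measure of total RNA per cell, and 2 libraries a group limit the precision.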

Other observations

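In later culture the same gene lists were read in fusion cells with Dex against WT, in libraries that the day 0 comparison did not use. At day 2, 23 of 27 glycolysis and hypoxia genes were higher and 1 lower (median 0.45), where 12.2% of all tested genes were higher and 17.2% lower. At day 6, 11 of 13 neural progenitor genes were higher and 1 lower (median 1.43), and 12 of 14 BMP and Id genes were higher and 2 lower (median 1.09), where 29.2% of all genes were higher and 32.2% lower. In stem cells the medians of these 2 lists were 0.06 and -0.01. Epcam, above WT by 0.58 in stem cells, was below it by 1.25 at day 4 and by 1.18 at day 6. Differences between days for these lists were not tested.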
